A study of Mus musculus with 12 samples.

Results

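The 39 Hox genes of the mouse were examined as a code of position along the body axis in RNA from ventrolateral spinal cord white matter. The members are the genes whose symbol is Hoxa, Hoxb, Hoxc or Hoxd followed by a number, and 39 of the 46078 genes in the deposited count table met that rule. The data are 12 libraries, each from a pool of white matter cut by laser from 5 C57Bl6 mice, with 3 pools in each of 4 groups. The young naive and middle-aged naive groups had no lesion, and the young injured and middle-aged injured groups were taken 72 h after lysolecithin, a detergent-like lipid that strips myelin, was injected into the ventrolateral white matter. By the methods of the study, young mice were 6 weeks old, middle-aged mice were 8 months old, and these methods place the lysolecithin surgery between vertebrae T3 and T4. Whether the naive tissue was cut at that same level is not stated in the sources used here. No transgene or deletion is described in any group, and animals were not kept apart within a pool. The spread between pools therefore joins that between sets of 5 mice with any from cutting and processing the pools.

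Hox genes encode homeodomain transcription factors and lie in 4 clusters, in which the gene order follows the order of expression along the embryo. Low paralog numbers begin at the hindbrain, middle numbers at cervical and thoracic levels, and numbers 10 to 13 at lumbar, sacral and tail levels. In the spinal cord Hoxc6 is known for brachial motor columns, Hoxc9 for thoracic columns and Hoxc10 for lumbar columns, and part of this code persists in adult cells.

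All 4 clusters are described on GRCm38. The Hoxa cluster has 11 genes on the minus strand of chromosome 6. The Hoxb cluster has 10 genes on the plus strand of chromosome 11, from 96194316 to 96368256. The Hoxc cluster has 9 genes on the plus strand of chromosome 15, from 102921103 to 103036852, and the Hoxd cluster has 9 genes on the plus strand of chromosome 2, from 74668310 to 74765142. In each cluster the higher numbers lie at the 5′ end of the genes' own strand.

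The 4 clusters arose as copies, so members with the same number resemble each other, and a read inside the homeobox can match more than 1 member. The homeobox, the 180 bases that encode the DNA-binding homeodomain, was compared between all 39 members. Pairs with the same number had a median identity of 80.6% over 42 pairs, with a range of 67.2% to 93.9%. Pairs with different numbers had a median of 60.6% over 699 pairs, with a range of 46.1% to 88.9%. A window of 30 bases from the homeobox is shown for 5 of the paralog 8 and 9 genes, which lie at the caudal step of the code, since these windows show how close the members are. The sequences are from GENCODE transcripts, 5′ to 3′ on the sense strand, and capitals mark bases that differ from Hoxd8.
Hoxd8: gtaaaaatctggttccagaacaggagaatg
Hoxb8: gtCaaaatctggttccagaaTCggagaatg
Hoxc8: gtGaaGatTtggttccagaaTCgAagGatg
Hoxc9: gtCaaaatctggttTcagaacCggagGatg
Hoxb9: gtCaaaatctggttTcagaacCggCgGatg
Over whole transcripts the sharing is small, since of the 31-base words of Hoxd8 0.1% occur in another Hox gene, of Hoxd9 0.6%, of Hoxd1 0.1% and of Hoxb4 0.9%. It is larger for Hoxd4, at 12.1%, and Hoxd3, at 9.3%, which are annotated with shared exons. Overlap with other annotated genes covers 62.8% of the exon bases of Hoxd3, 52.3% of Hoxd4 and 52.9% of Hoxb3, the last with the antisense RNA Hoxb3os. Smaller overlaps cover 27.3% of the exon bases of Hoxb2, 27.1% of Hoxa3 and 20.4% of Hoxa7, mostly with antisense RNAs. Whether reads were counted by strand is not given in the sources used here. Reads in the overlaps of all these genes with their partners therefore cannot be told apart. For Hoxd8, Hoxd9, Hoxd1, Hoxc8, Hoxc6 and Hoxa5 no exon base overlaps another gene.

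The libraries held 9834447 to 12807437 counts, of which 1383 to 3086 per pool fell on Hox genes. A floor of 3 counts, the limit that a count of 0 allows, stood for 0.220 to 0.323 CPM (counts per 1000000 of the library size after adjustment by trimmed mean of M-values). The libraries carried the markers of white matter, with 6 oligodendrocyte genes summing to 53010 to 102000 CPM in naive pools. They also carried neurons or their RNA, since 4 motor neuron genes, Chat, Slc5a7, Isl1 and Prph, summed to 169 to 337 CPM in naive pools. Middle-aged naive replicate 2 stood apart from its group. Over the Hox genes its counts differed from those of the other two middle-aged naive pools by 14.2 and 13.7 times the sampling noise (chi-square per degree of freedom), while the 2 latter differed from each other by 3.17 times. It had the highest level of 6 and the lowest of 5 of 22 Hox genes among the 6 naive pools, but other naive pools came near or passed these counts. Young naive replicates 1 and 2 were each highest in 5, and young naive replicate 3 was lowest in 7. Middle-aged naive replicate 2 also held 380 counts of Mnx1, a motor neuron gene, against 24 to 127 in the other naive pools. Its sum of the 4 motor neuron genes, at 299 CPM, lay within the range of the other naive pools. It held 268 counts of Aldh1a2, an enzyme gene of retinoic acid synthesis, against 1 to 7 in the other naive pools. Where leaving it out changed a call, turned a direction or moved a fold change by over 1.5 times for a gene named with its fold change with injury, the value without it is given.

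Paralogs 6 to 8 gave the largest share of the Hox level per kb of exon in the naive cord, and most of that share was Hoxd8. The share was 61.4% in young naive and 56.6% in middle-aged naive pools, with Hoxd8 alone at 41.2% and 37.5% of the whole level. Paralogs 4 and 5 gave 27.1% and 33.6%. By length-scaled level (CPM per kb of exon), Hoxd8, a mid-cluster factor, was the highest member in every group, at 41.5 in young naive, 40.0 in middle-aged naive, 11.6 in young injured, then 9.57 in middle-aged injured pools. Next over all pools came Hoxa5, Hoxa4, Hoxa7, Hoxb5 and Hoxc8, at 9.05, 7.30, 6.59, 5.83 and 5.11 CPM per kb. Hoxd8 alone gave 9298 of the 26750 Hox counts, or 34.8%.

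**Figure D1:**
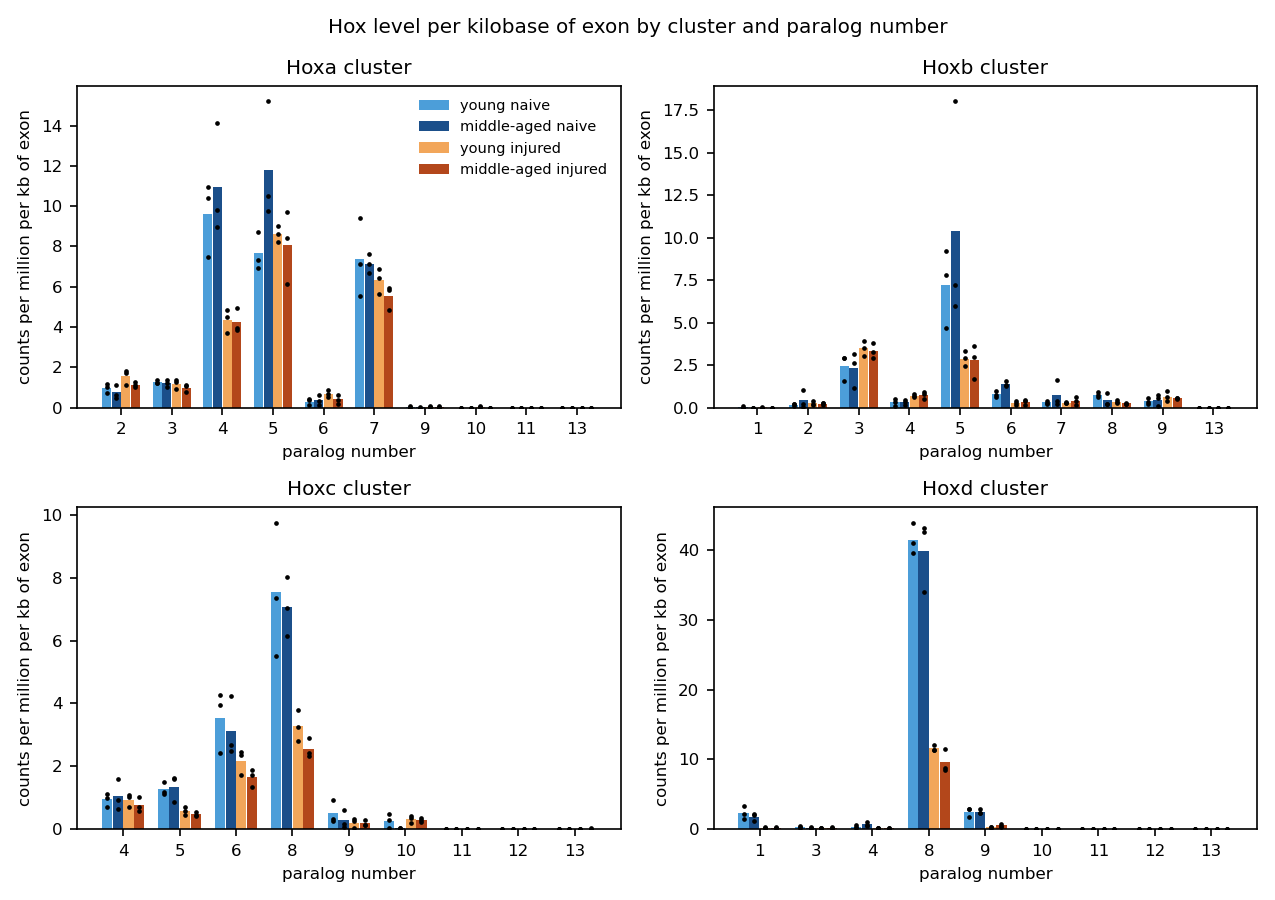
Level of 38 of the 39 Hox genes in CPM per kb of exon (vertical axis, linear, a scale of its own in each panel) by paralog number (horizontal axis) in the 4 clusters. Bars are means of 3 pools in each group and dots are pools. Hoxd8 stands at 41.5 in young naive and 11.6 in young injured pools, and genes numbered 10 to 13 lie near 0 in every group.

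Members beyond paralog 9 were near or at the floor. Of the 27 members numbered 1 to 9, 22 passed the low-count filter, and of the 12 members numbered 10 to 13 none did. A set of 6 members, Hoxa11, Hoxa13, Hoxb13, Hoxc11, Hoxc12 and Hoxd12, had 0 counts in all 12 pools, which allows a level of up to 0.323 CPM in the shallowest pool. The other 11 members below the filter were Hoxa6, Hoxa9, Hoxa10, Hoxb1, Hoxb7, Hoxc9, Hoxc10, Hoxc13, Hoxd10, Hoxd11 and Hoxd13. Together the members numbered 10 to 13 gave 74 counts, 63 of them on Hoxc10, which reached 3 counts in 8 pools. The last member with at least 3 counts in every pool was Hoxa7, Hoxb9, Hoxc8 and Hoxd9 in clusters A to D.

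The step beyond these last members was steep in clusters A and C, and started from lower counts in clusters B and D. After Hoxa7, with 148 to 297 counts per pool, Hoxa9 had 6, 1 and 0 counts in young naive, 0, 0 and 1 in middle-aged naive, 1, 2 and 4 in young injured, then 0, 5 and 1 in middle-aged injured pools. After Hoxc8, with 83 to 303 counts, Hoxc9 had 25, 9 and 6 counts in young naive, 2, 14 and 5 in middle-aged naive, 1, 10 and 8 in young injured, then 8, 4 and 4 in middle-aged injured pools. In both genes naive and injured pools overlapped at both ages. After Hoxd9 with 5 to 69 counts, Hoxd10 had 1 count in 1 pool and 0 in the other 11. Hoxb9, with 3 to 34 counts, was followed by Hoxb13 at 0 in every pool. By the floor of 3 counts, the last step lay between numbers 7 and 9 in cluster A, which has no member 8, and between 8 and 9 in cluster C. It lay between 9 and 10 in cluster D and between 9 and 13 in cluster B. Larger falls in counts lay earlier in clusters B and D. Over all pools, Hoxb5 had 2138 counts and Hoxb6 182, and Hoxd8 had 9298 and Hoxd9 404.

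**Figure D2:**
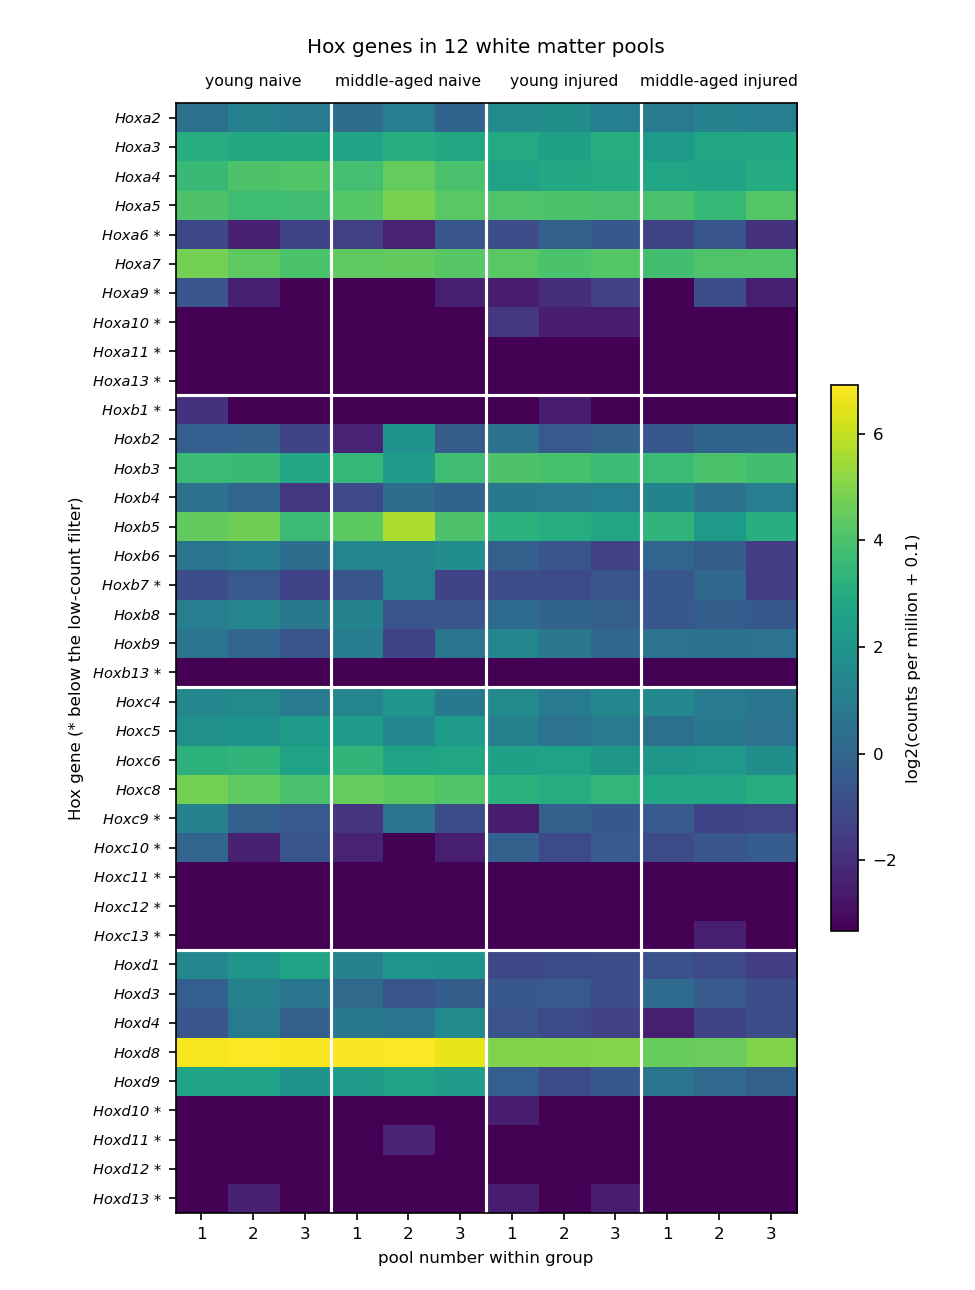
Level of 38 of the 39 Hox genes (rows, by cluster and paralog number) in 12 pools (columns, by group), in log2 of CPM plus 0.1. Asterisks mark the 17 genes below the low-count filter. Hoxd8 is the brightest row in naive pools and dims in injured pools, and the last rows of each cluster are dark in all 12 pools.

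The number of members at or above the floor of 3 counts in every pool of a group was 23 in young naive, 21 in middle-aged naive, 25 in young injured, then 24 in middle-aged injured pools. Single pools held 22 to 27 members. Young naive replicate 1 had the most counts of Hoxc9 among all pools, at 25, and 10 counts of Hoxc10, while young naive replicate 2 had 9 and 1.

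The mean paralog number, weighted by length-scaled level, summarises the code in 1 value per pool. It was 6.61, 6.45 and 6.40 in the young naive pools, 6.58, 6.17 and 6.31 in the middle-aged naive pools, 5.86, 5.81 and 5.96 in the young injured pools and 5.77, 5.80 and 5.85 in the middle-aged injured pools. All 6 injured pools lay below all 6 naive pools, while the 2 ages overlapped within the naive and within the injured state. Group means were 6.49 ± 0.111, 6.35 ± 0.210, 5.87 ± 0.0755 and 5.81 ± 0.0404 (SD, n = 3 pools each).

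Hoxd8 weighed most in that difference. With each of the 39 members left out in turn, a comparison chosen after seeing the data, the naive mean less the injured mean was 0.156 without Hoxd8 in young mice, against 0.615 over all members, and 0.14 against 0.545 at the middle age. Without any other single member it was no less than 0.494 and 0.402. Hoxd8 made up 38.1% to 44.5% of the summed Hox level per kb in young naive pools, 34.3% to 41.3% in middle-aged naive pools, 21% to 23.5% in young injured pools and 19% to 23.1% in middle-aged injured pools. With Hoxd8 left out, the mean paralog number was 5.42 ± 0.321 in young naive, 5.37 ± 0.189 in middle-aged naive, 5.26 ± 0.0791 in young injured, then 5.23 ± 0.0231 in middle-aged injured pools (SD, n = 3 each), and the pools of naive and injured tissue overlapped.

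**Figure D3:**
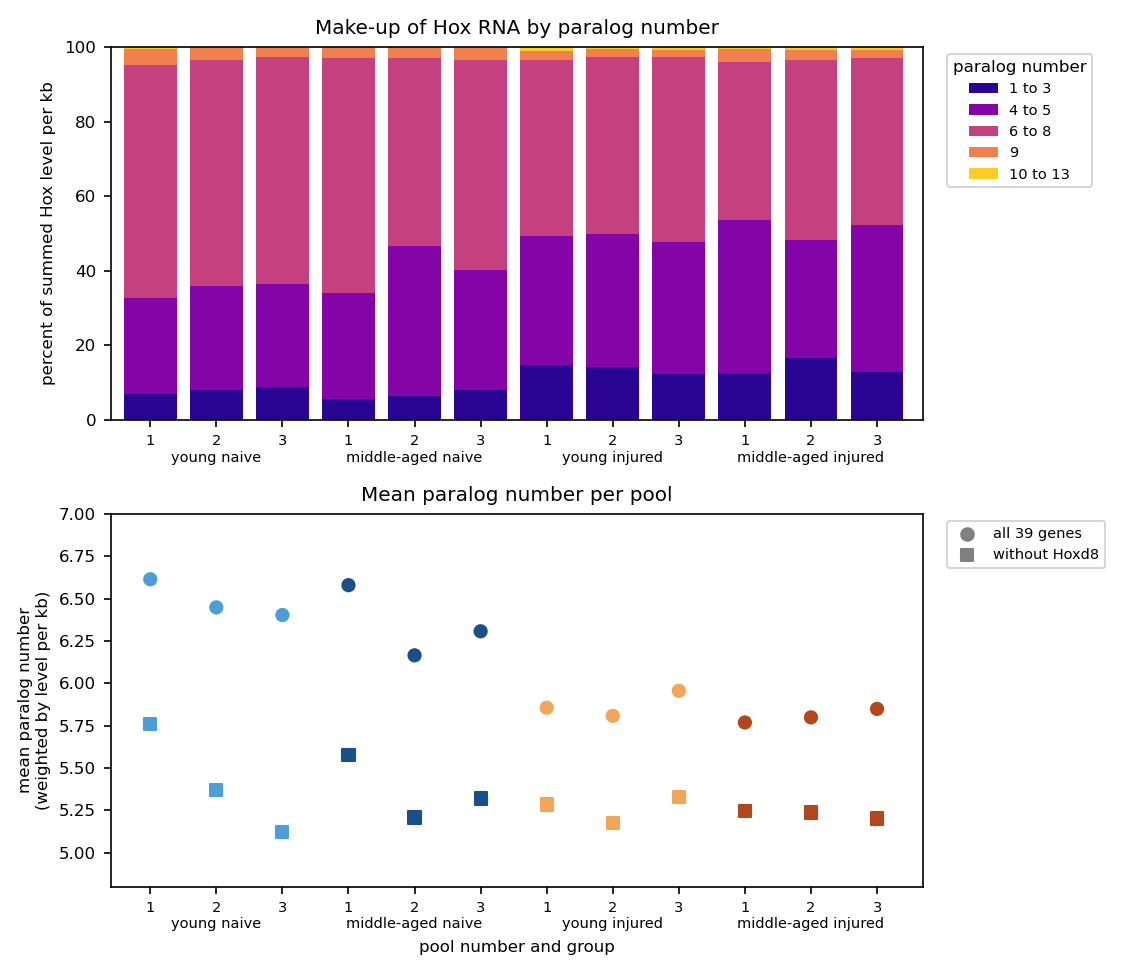
Upper panel, percent of the summed Hox level per kb by band of paralog numbers in each pool. Lower panel, mean paralog number weighted by level per kb in each pool, over all 39 genes (circles) and without Hoxd8 (squares), on an axis that does not start at 0. The circles of the 6 injured pools lie at 5.77 to 5.96, below the naive pools at 6.17 to 6.61, and the squares overlap.

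By bands, paralogs 1 to 3 made up 7.91% ± 0.992 of the Hox level per kb in young naive against 13.8% ± 1.31 in young injured pools, and 6.67% ± 1.2 in middle-aged naive against 14% ± 2.29 in middle-aged injured pools (SD, n = 3). Paralogs 6 to 8 made up 61.4% ± 0.962 and 56.6% ± 6.24 in the naive groups and 48.1% ± 1.42 and 45.2% ± 2.97 in the injured groups, young first. Paralog 9 genes made up 3.35% ± 1.01, 3.06% ± 0.238, 2.21% ± 0.315 and 2.79% ± 0.636 in young naive, middle-aged naive, young injured and middle-aged injured pools. These are shares of 1 total, so a fall in Hoxd8 alone would raise every other share.

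The share from paralogs 10 to 13 stayed near or under 1% of the length-scaled level. It was 0.281% ± 0.192 in young naive, 0.0380% ± 0.0158 in middle-aged naive, 0.762% ± 0.297 in young injured, then 0.657% ± 0.148 in middle-aged injured pools (SD, n = 3). As raw counts, it ranged from 1 of 3016 Hox counts in middle-aged naive replicate 2 (0.0332%, 95% Clopper-Pearson interval 0.000839% to 0.185%) to 16 of 1943 in young injured replicate 1 (0.823%, interval 0.471% to 1.33%). These intervals cover the counting error of reads alone. No molecular identifiers are described for the amplified reads in the study's methods.

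By cluster, the Hoxd share of the level per kb was 42.7% to 50.5% in young naive and 38.8% to 45.5% in middle-aged naive pools, against 22.8% to 25% and 21.8% to 24.6% in the injured groups. The Hoxa share was 25.7% to 32.3% in naive and 43.6% to 47.0% in injured pools. In summed CPM, Hoxd was at 126 ± 7.95 in young naive and 33.8 ± 0.993 in young injured pools, and at 121 ± 13.5 and 28.8 ± 3.97 in the middle-aged pools (SD, n = 3, with no test on sums). Hoxa was at 61.7 ± 4.24 and 52.7 ± 2.21 in young and 70.1 ± 13.6 and 47.1 ± 4.94 in middle-aged pools, naive first, a smaller difference than that of Hoxd. The Hoxc sum was 38.0 ± 8.64 and 35.2 ± 4.95 CPM in naive and 19.8 ± 1.35 and 15.7 ± 0.370 CPM in injured pools.

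The lesion was compared with naive tissue at each age to ask whether the Hox code changed with injury. In young mice, of 22 members tested 10 fell and 0 rose, and in middle-aged mice 11 fell and 0 rose, at an adjusted p under 0.05 (edgeR quasi-likelihood test, Benjamini-Hochberg adjustment over 15866 genes). Of all genes tested, 28.3% rose and 26.3% fell in young mice and 29.2% rose and 29.3% fell in middle-aged mice. The median log2 fold change of the 22 members was -0.92 in young, and -0.86 in middle-aged mice, against medians of 0.001 and -0.032 over all genes. At an unadjusted p under 0.05, 12 members passed in each comparison, where 59.6% of all genes passed in young and 62.8% in middle-aged mice, so this count is not above the background. A member can pass the low-count filter through its naive pools alone, so these counts describe the 22 and not all 39. Without young naive replicate 2, and likewise without young injured replicate 2, 6 fell in young mice. With bulk tissue, fewer cells of a type and less RNA per cell cannot be told apart.

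A total of 9 members fell at both ages, namely Hoxa4, Hoxb5, Hoxb6, Hoxc5, Hoxc6, Hoxc8, Hoxd1, Hoxd8 and Hoxd9. Hoxd3 passed the test in young mice, and Hoxa5 and Hoxd4 passed it in middle-aged mice. None of the 22 passed a test of the difference between the 2 injury effects, so an age difference is not shown for these 3.

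**Figure D4:**
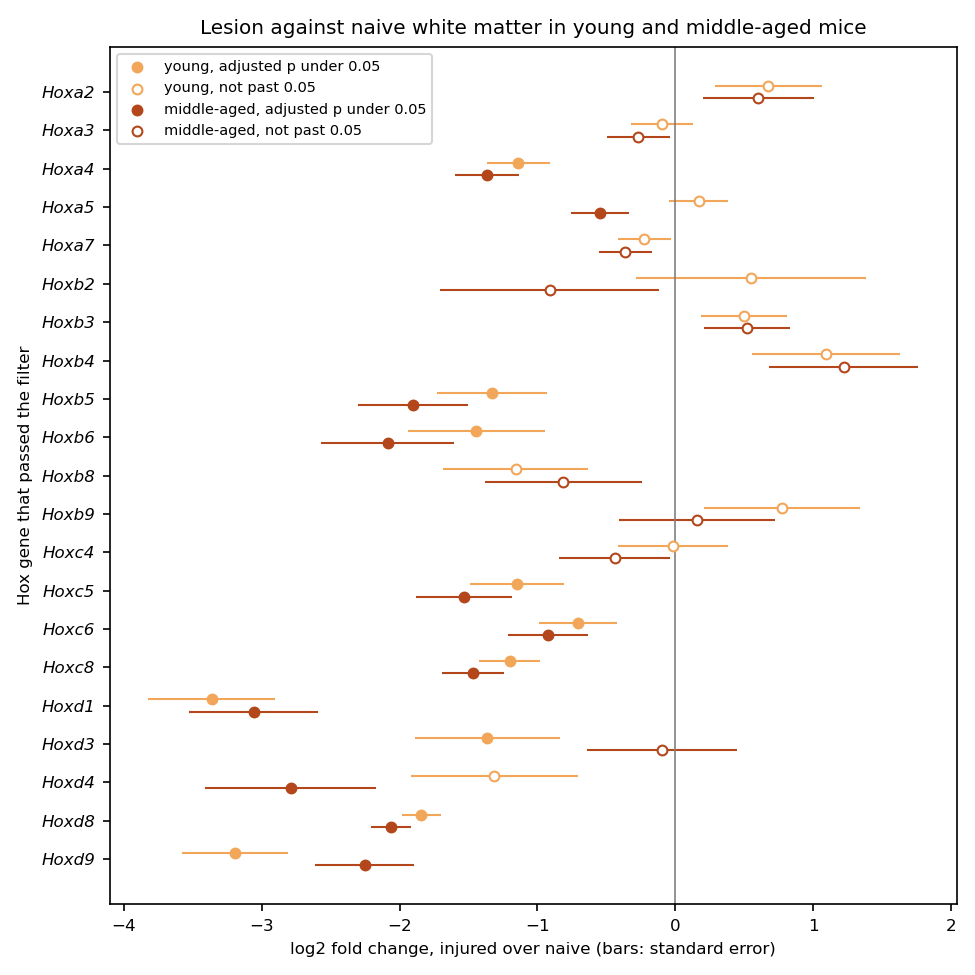
Log2 fold change of injured over naive pools (horizontal axis) with its standard error for 21 of the 22 Hox genes that passed the filter, in young and middle-aged mice. Filled points passed an adjusted p of 0.05. Every filled point lies left of 0, with Hoxd1 and Hoxd9 farthest left in young mice, and Hoxb3 and Hoxb4 lie right of 0 at both ages without passing.

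The Hoxd cluster had the largest changes. Hoxd8 was at 109, 121 and 113 CPM in young naive pools, 117, 119 and 93.5 in middle-aged naive, 31.1, 31.2 and 33.0 in young injured, then 23.3, 24 and 31.4 in middle-aged injured pools. Every injured pool lay below every naive pool, with a wide gap between them. Log2 fold changes with injury were -1.84 ± 0.14 (SE) in young pools with an edgeR adjusted p of 7.63e-08, and -2.06 ± 0.14 in middle-aged pools with an edgeR adjusted p of 2.42e-08.

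Hoxd9, the most caudal Hoxd gene detected in every pool, was at 6.29, 6.07 and 3.66 CPM in young naive, 4.90, 6.09 and 4.96 in middle-aged naive, 0.734, 0.388 and 0.602 in young injured, then 1.49, 1.04 and 0.777 in middle-aged injured pools. The groups of injured pools stood below the naive groups, and the young injured pools stood below the middle-aged injured pools. The log2 fold change with injury was -3.19 ± 0.39 for the young (edgeR adjusted p = 7.21e-06) and -2.25 ± 0.36 for the middle-aged mice (edgeR adjusted p = 9.06e-05).

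Hoxd1 lies at the other end of the cluster, was 2.64, 3.99 and 6.13 CPM in young naive and 2.21, 3.99 and 3.68 in middle-aged naive pools, and 0.367, 0.388 and 0.452 in young injured, then 0.498, 0.399 and 0.259 in middle-aged injured pools. All injured pools held 3 to 6 counts of it, near the floor. Its log2 fold change was -3.36 ± 0.46 (edgeR adjusted p = 2.37e-05) and -3.06 ± 0.47 (edgeR adjusted p = 6.02e-05) in young and middle-aged mice. The members that fell thus included both ends of the detected Hoxd cluster.

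Hoxd3 and Hoxd4, which share exons, gave less even values. Hoxd4 was at 0.547, 1.72 and 0.753 CPM in young naive, 1.63, 1.47 and 2.80 in middle-aged naive, 0.514, 0.388 and 0.301 in young injured, then 0.0830, 0.319 and 0.432 in middle-aged injured pools. Its log2 fold change was -1.31 ± 0.60 in young mice, where it passed unadjusted at an edgeR p of 0.0473 but not after adjustment (edgeR adjusted p = 0.0800). At the middle age it was -2.79 ± 0.62 and passed (edgeR adjusted p = 0.00136). The middle-aged injured pools held 1, 4 and 5 counts of Hoxd4, below or near the floor, so the size of this fall is uncertain. Hoxd3 was at 0.729, 2.08 and 1.5 CPM in young naive, 1.06, 0.525 and 0.720 in middle-aged naive, 0.587, 0.620 and 0.452 in young injured, then 1.08, 0.639 and 0.432 in middle-aged injured pools. Its young injured pools lay below the young naive pools, and the middle-aged groups overlapped. The log2 fold changes were -1.36 ± 0.53 (edgeR adjusted p = 0.0408) in young and -0.10 ± 0.54 (edgeR adjusted p = 0.889) in middle-aged mice. The Hoxd3 call in young mice was lost in 10 of 20 other settings, with edgeR adjusted p up to 0.196, among them leaving out young naive replicate 2 or 3, any 1 young injured pool or middle-aged injured replicate 2.

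In the Hoxc cluster, the trunk genes Hoxc8, Hoxc6 and Hoxc5 fell at both ages. Hoxc8 was at 27.6, 20.9 and 15.6 CPM in young naive, 22.8, 19.9 and 17.4 in middle-aged naive, 9.18, 7.98 and 10.7 in young injured, then 6.89, 6.63 and 8.20 in middle-aged injured pools. No injured pool reached a naive pool. It fell with log2 fold changes of -1.20 ± 0.22 at the young and -1.47 ± 0.22 at the middle age, with edgeR adjusted p of 0.000330 and 6.00e-05.

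Hoxc6 was 9.47, 10.2 and 5.81 CPM in young naive, 10.2, 5.98 and 6.48 in middle-aged naive, 5.65, 5.89 and 4.14 in young injured, then 4.15, 4.55 and 3.19 in middle-aged injured pools. The young groups overlapped, and its call in young mice (log2 fold change -0.70 ± 0.28, edgeR adjusted p = 0.0487) was lost in 13 of 21 other settings, with edgeR adjusted p up to 0.180, among them leaving out young naive replicate 1 or 2, any 1 young injured pool or any 1 middle-aged injured pool. In middle-aged mice it fell by 0.92 ± 0.29 on the log2 scale (edgeR adjusted p = 0.0139), which was lost without middle-aged naive replicate 1 or middle-aged injured replicate 3, at edgeR adjusted p up to 0.0754. Hoxc5 had log2 fold changes of -1.15 ± 0.34 and -1.53 ± 0.35 (edgeR adjusted p = 0.0104 and 0.00160), from 3.46 to 4.62 CPM in young naive and 2.62 to 4.99 in middle-aged naive to 1.40 to 2.13 and 1.25 to 1.68 in the injured groups. Its call in young mice was lost without young injured replicate 2 (edgeR adjusted p = 0.0510). Hoxc4 was at 2.55, 2.90 and 1.83 CPM in young naive, 2.40, 4.09 and 1.68 in middle-aged naive, 2.79, 1.78 and 2.64 in young injured, then 2.66, 1.84 and 1.47 in middle-aged injured pools. This gene, at the 3′ end, overlapped between groups, with log2 fold changes of -0.02 ± 0.40 and -0.44 ± 0.40.

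In the Hoxa cluster, neighbours differed in their change. Hoxa4 was at 11.9, 16.6 and 17.4 CPM in young naive, 14.3, 22.6 and 15.6 in middle-aged naive, 5.87, 7.21 and 7.76 in young injured, then 6.31, 6.15 and 7.86 in middle-aged injured pools. Its injured pools stood below its naive pools at both ages, with log2 fold changes of -1.14 ± 0.23 and -1.37 ± 0.23 (edgeR adjusted p = 0.000738 and 0.000149). Of its exon bases, 16% overlap an antisense gene.

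Hoxa5, next to Hoxa4, was at 16.4, 13.1 and 13.8 CPM in young naive, 18.3, 28.5 and 19.7 in middle-aged naive, 17.0, 16.2 and 15.4 in young injured, then 15.8, 11.5 and 18.2 in middle-aged injured pools. The young groups overlapped, and the middle-aged injured pools lay below the middle-aged naive pools by a small gap. Its log2 fold change was 0.17 ± 0.21 (edgeR adjusted p = 0.528) in young mice and -0.55 ± 0.21 (edgeR adjusted p = 0.0374) in middle-aged mice. Without middle-aged naive replicate 2, the pool at 28.5, the second value was -0.32 with an edgeR adjusted p of 0.159. The call was lost in 8 of 21 other settings, among them library totals as the only scaling (edgeR adjusted p = 0.0826), no low-count filter (0.0602), a fit of the compared pools alone (0.0909) and leaving out young injured replicate 2, middle-aged injured replicate 1 or middle-aged injured replicate 2.

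Hoxa7 was at 27.1, 20.6 and 15.9 CPM in young naive, 20.4, 21.9 and 19.3 in middle-aged naive, 19.8, 16.3 and 18.4 in young injured, then 13.9, 17.1 and 16.8 in middle-aged injured pools. Its log2 fold changes of -0.22 ± 0.19 and -0.36 ± 0.19 did not pass the test (edgeR adjusted p = 0.346 and 0.120). Of its exon bases, 20.4% overlap the antisense RNA Hoxaas3. Of the hindbrain-level members, Hoxa2 had log2 fold changes of 0.68 ± 0.39 and 0.60 ± 0.40 and Hoxa3 of -0.09 ± 0.23 and -0.27 ± 0.23, none past the threshold. Hoxa3 in particular was level across groups, at 6.24 to 8.20 CPM in naive and 4.65 to 8.13 in injured pools. Overlaps with other genes cover 27.1% of its exon bases.

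The Hoxb cluster held members that fell beside members that were higher in the lesion without passing the test. Hoxb5 was at 21.7, 25.7 and 13 CPM in young naive, 20.2, 50.3 and 16.6 in middle-aged naive, 9.25, 8.06 and 6.78 in young injured, then 10.1, 4.71 and 8.37 in middle-aged injured pools. Its log2 fold change was -1.33 ± 0.40 for the young (edgeR adjusted p = 0.0108) and -1.90 ± 0.40 for the middle-aged mice (edgeR adjusted p = 0.000936). Without middle-aged naive replicate 2, the pool at 50.3, the latter was -1.25 with an edgeR adjusted p of 0.00266. The young call was lost without young naive replicate 2 (edgeR adjusted p = 0.0506).

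Hoxb6 was 1.46, 1.90 and 1.18 CPM in young naive, 2.59, 2.52 and 3.04 in middle-aged naive, 0.807, 0.543 and 0.301 in young injured, then 0.913, 0.719 and 0.259 in middle-aged injured pools. Injured pools lay below naive pools, with log2 fold changes of -1.45 ± 0.50 and -2.09 ± 0.48 (edgeR adjusted p = 0.0235 and 0.00190). The injured pools held 3 to 11 counts of Hoxb6, the lowest at the floor. The young call was lost when young naive replicate 2, young injured replicate 2 or young injured replicate 3 was left out, at edgeR adjusted p up to 0.105. Hoxb8 was 1.61 to 2.45 CPM in young naive and 0.753 to 1.1 in young injured pools and did not pass (log2 fold change -1.16 ± 0.53, edgeR adjusted p = 0.0766), nor in middle-aged mice at -0.81 ± 0.57. Hoxb9 was at 1.46, 0.906 and 0.538 CPM in young naive, 1.92, 0.315 and 1.44 in middle-aged naive, 2.5, 1.55 and 0.979 in young injured, then 1.41, 1.36 and 1.38 in middle-aged injured pools, and naive and injured pools overlapped at both ages. Its log2 fold changes were 0.77 ± 0.57 and 0.16 ± 0.56, neither past the threshold, and the latter was -0.27 without middle-aged naive replicate 2. Hoxb2 had log2 fold changes of 0.55 ± 0.83 and -0.91 ± 0.80, neither past the threshold. It had 35 counts in middle-aged naive replicate 2 against 1 and 9 in the other pools of that group, and without that pool the middle-aged value turned to 0.85 ± 0.71 (edgeR adjusted p = 0.314).

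Hoxb3 was at 12.5, 12.3 and 6.77 CPM in young naive, 11.1, 4.93 and 13.4 in middle-aged naive, 16.7, 15 and 13 in young injured, then 12.5, 16.2 and 13.8 in middle-aged injured pools. In young mice its 3 injured pools lay above the 3 naive pools, and in middle-aged mice the groups overlapped, with log2 fold changes of 0.50 ± 0.31 and 0.52 ± 0.31 (edgeR adjusted p = 0.189 and 0.167). The antisense RNA Hoxb3os, whose exons overlap those of Hoxb3, had log2 fold changes of 0.46 and 0.26, neither past the threshold (edgeR adjusted p = 0.162 and 0.432).

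Hoxb4 was at 1.37, 0.906 and 0.215 CPM in young naive, 0.384, 1.15 and 0.880 in middle-aged naive, 1.61, 1.78 and 2.03 in young injured, then 2.32, 1.36 and 1.99 in middle-aged injured pools. Injured pools were above naive pools at both ages, and the log2 fold changes were 1.09 ± 0.54 and 1.22 ± 0.54, with edgeR adjusted p of 0.1 and 0.0662. The middle-aged value passed without young naive replicate 3 (edgeR adjusted p = 0.0344), without middle-aged naive replicate 2 (log2 fold change 1.54, edgeR adjusted p = 0.0391) and with library totals as the only scaling (edgeR adjusted p = 0.0454), which puts the median of all genes at 0.077 in middle-aged and 0.196 in young mice. The young value passed without young naive replicate 1 (edgeR adjusted p = 0.0467).

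**Figure D5:**
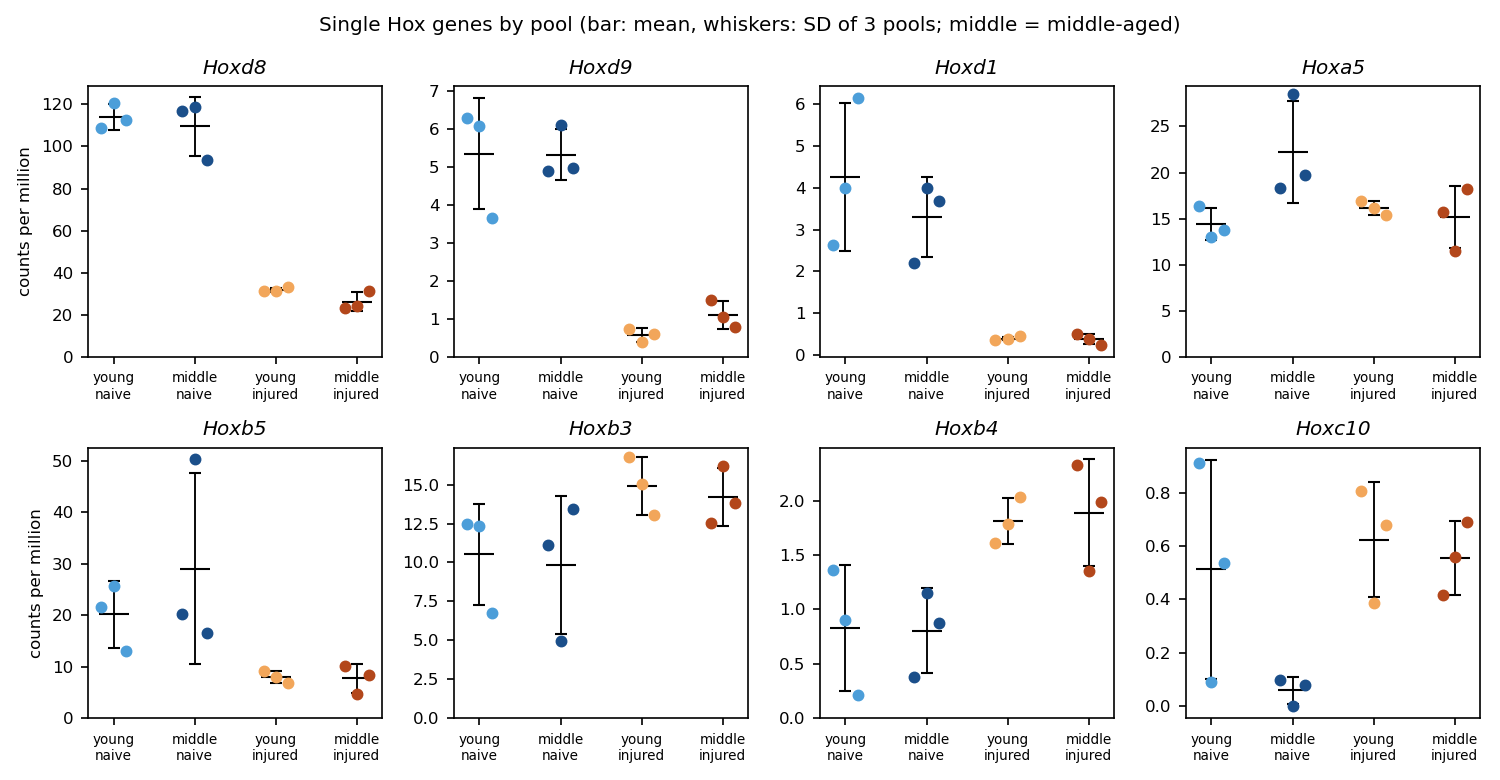
CPM (vertical axis, linear) of 8 Hox genes in the 12 pools, by group (horizontal axis). Points are pools, the bar is the mean and whiskers are the SD of 3 pools. Hoxd8, Hoxd9 and Hoxd1 fall in every injured pool, Hoxb3 and Hoxb4 do not, and Hoxc10 has 0 to 0.0960 CPM in middle-aged naive pools and 0.415 to 0.691 in middle-aged injured pools.

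Hoxc10, the lumbar-level gene just beyond Hoxc9, was the one member numbered 10 or above with more than 5 counts in all. It had 10, 1 and 5 counts in young naive pools, 1, 0 and 1 in middle-aged naive pools, 11, 5 and 9 in young injured pools and 5, 7 and 8 in middle-aged injured pools. The middle-aged naive pools held 0 or 1 count each, as did young naive replicate 2, and the young groups overlapped. Summed over pools, the ratio of injured to naive CPM was 8.97 in middle-aged mice (95% counting interval 2.18 to 79.2, from 20 and 2 counts) and 1.23 in young mice (0.631 to 2.46, from 25 and 16 counts). Both intervals cover the counting error of reads alone and leave out the spread between pools. Pooled over both ages the log2 difference was 1.59 with a p of 0.0350 in a 2-sided exact permutation test over 400 arrangements, and an adjusted p of 0.280 over 8 exact tests of the 4 genes Hoxa6, Hoxb7, Hoxc9 and Hoxc10.

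None of the other 7 of these tests passed, with exact adjusted p between 0.400 and 0.605. Hoxc9, the thoracic-level gene, was 0.645 to 2.28 CPM in young naive, 0.192 to 1.47 in middle-aged naive, 0.0734 to 0.775 in young injured and 0.319 to 0.664 in middle-aged injured pools. Fitted without the low-count filter, Hoxc10 passed in middle-aged mice at an edgeR adjusted p of 0.0222. Of Hoxc10's exon bases 8.70% are shared with Hoxc5, a gene that fell, on the same strand.

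Ratios of neighbouring paralogs within 1 pool do not depend on library size, and they set a caudal member against a rostral one. Of 8 pairs listed, 4 had enough counts, and none of 8 exact permutation tests passed an adjusted p of 0.05. The pair that shifted most was Hoxb9 to Hoxb8. Its log2 ratio was -0.45, -1.39 and -1.49 in young naive, -0.26, -0.65 and 1.30 in middle-aged naive, 1.15, 0.83 and 0.36 in young injured, then 1.22, 0.88 and 1.14 in middle-aged injured pools. Hoxb9 thus exceeded Hoxb8 in counts in all 6 injured pools and in 1 naive pool, middle-aged naive replicate 3. The log2 difference of injured from naive was 1.42, with an exact permutation p of 0.0200 and an adjusted p of 0.11. Without that pool the difference was 1.71 and the exact adjusted p 0.0400.

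For Hoxc8 to Hoxc6 the log2 ratio was 1.33 ± 0.27 and 1.43 ± 0.29 in naive and 0.83 ± 0.48 and 0.87 ± 0.42 in injured pools, young first (SD, n = 3), with an exact permutation p of 0.0350 and an adjusted p of 0.11. For Hoxd9 to Hoxd8 it was -4.44 ± 0.43, -4.35 ± 0.18, -5.74 ± 0.43 and -4.56 ± 0.67 in young naive, middle-aged naive, young injured and middle-aged injured pools, with an exact permutation p of 0.05 and an adjusted p of 0.11. For Hoxc9 to Hoxc8 it was -4.22 ± 0.56, -5.20 ± 1.43, -4.59 ± 1.61 and -3.97 ± 0.59, with an exact adjusted p of 0.747. Caudal to rostral ratios therefore moved up in 2 pairs and down in 2 pairs with injury, in no case past the threshold.

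Age was compared in naive and in injured tissue. Of the 22 members tested, 0 passed the threshold for age in naive tissue, where 3.80% of all genes passed, and 0 for age in injured tissue, where 1.15% passed (edgeR quasi-likelihood test). At an unadjusted p under 0.05, 1 member passed in each, where 18.3% of all genes passed in naive and 9.62% in injured tissue. In naive tissue that member was Hoxa5, at 18.3 to 28.5 CPM in middle-aged and 13.1 to 16.4 in young pools, a log2 difference of 0.62 ± 0.21 with an edgeR adjusted p of 0.129. Hoxb6 also did not overlap between the naive groups, at 2.52 to 3.04 CPM in middle-aged and 1.18 to 1.90 in young pools, with a log2 difference of 0.84 ± 0.45 and an edgeR adjusted p of 0.347. Without middle-aged naive replicate 1, Hoxb8 passed with a log2 difference of -1.88 and an edgeR adjusted p of 0.0440.

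In injured tissue the member was Hoxd9, at 0.777 to 1.49 CPM in middle-aged and 0.388 to 0.734 in young pools, a log2 difference of 0.93 ± 0.41 with an edgeR adjusted p of 0.479. When the injury effects of the 2 ages were set against each other 0 members passed, where 0.139% of all genes did, and 1 passed an unadjusted p under 0.05, where 9.92% of all genes did (edgeR quasi-likelihood test). That was Hoxa5, with a log2 difference of -0.72 ± 0.30 and an edgeR adjusted p of 0.440. The naive and injured age comparisons share no pools, and each shares pools with the injury comparisons.

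Genes that work with Hox proteins or set Hox expression were read against the 28.3% of all genes that rose and 26.3% that fell in young mice, and the 29.2% and 29.3% in middle-aged mice. The TALE homeodomain proteins bind DNA together with Hox proteins. Of 9 tested, 2 rose and 3 fell in young and 2 rose and 4 fell in middle-aged mice, with median log2 fold changes of 0.17 and -0.21. Meis3 rose, by 1.05 ± 0.22 and 2.04 ± 0.23 on the log2 scale (edgeR adjusted p = 0.000850 and 2.78e-06), and Pbx2 rose by 0.56 ± 0.15 and 0.62 ± 0.15 (edgeR adjusted p = 0.00523 and 0.00236). Pbx3, Meis1 and Meis2 fell at both ages, Pbx3 with log2 fold changes of -1.11 ± 0.20 and -1.1 ± 0.20 (edgeR adjusted p = 0.000299 and 0.000283).

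Of 20 Polycomb and trithorax genes, which hold Hox clusters silent or active, 7 rose and 6 fell in young and 5 rose and 6 fell in middle-aged mice, with medians of -0.14 and -0.11, counts near the background. The Polycomb methyltransferase gene Ezh2 rose, with log2 fold changes of 2.21 ± 0.20 and 2.37 ± 0.20 (edgeR adjusted p = 3.69e-07 and 1.87e-07), and its relative Ezh1 fell, with -0.95 ± 0.12 and -1.46 ± 0.12 (edgeR adjusted p = 1.12e-05 and 1.50e-07). Cbx7, a reader of the Polycomb mark, fell, with -1.83 ± 0.15 and -2.55 ± 0.15 (edgeR adjusted p = 1.72e-07 and 6.48e-09). In naive tissue Cbx7 and Ezh1 were higher in middle-aged mice, by 0.87 ± 0.14 and 0.52 ± 0.12 on the log2 scale (edgeR adjusted p = 0.00450 and 0.0274).

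Of 11 tested genes upstream of Hox, mostly of retinoic acid signalling, 6 rose and 1 fell in young and 5 rose and 1 fell in middle-aged mice, with medians of 1.08 and 1.05. Of 6 retinoid receptor genes tested, Rara (1.78 ± 0.50 and 1.75 ± 0.48, edgeR adjusted p = 0.00744 and 0.00654) and Rxra (1.08 ± 0.16 and 0.99 ± 0.16, edgeR adjusted p = 4.55e-05 and 8.65e-05) rose on the log2 scale at both ages. Rxrg fell at both ages, with log2 fold changes of -0.97 ± 0.34 and -1.17 ± 0.35 (edgeR adjusted p = 0.0244 and 0.00960). Rarg rose in young mice, by 1.44 ± 0.57 (edgeR adjusted p = 0.0436), but its 1.05 ± 0.57 at the middle age did not pass (edgeR adjusted p = 0.127), while Rarb and Rxrb passed at neither age. Aldh1a2, an enzyme of retinoic acid synthesis, had 4, 7 and 3 counts in young naive and 476, 372 and 157 in young injured pools. In middle-aged mice it had 2, 268 and 1 counts in naive and 398, 584 and 152 in injured pools. Without middle-aged naive replicate 2, it passed in middle-aged mice at 7.78 ± 0.87 (edgeR adjusted p = 2.89e-06), against 1.74 with an edgeR adjusted p of 0.161 over all pools. The caudal regulator Cdx2 had 0 counts in every pool. A list of Hox cluster neighbours and antisense RNAs also held the motor neuron gene Mnx1. Of its 5 tested genes, Hoxd3os1 and Mnx1 fell at both ages. Hoxd3os1 had log2 fold changes of -1.45 ± 0.40 and -1.5 ± 0.41 (edgeR adjusted p = 0.00669 and 0.00591). Mnx1 had -2.74 ± 0.62 and -4.64 ± 0.65 (edgeR adjusted p = 0.00184 and 2.58e-05). Without middle-aged naive replicate 2 the latter was -3.59 ± 0.46 (edgeR adjusted p = 1.02e-05).

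Markers of cell types moved with the same contrast. The 6 oligodendrocyte genes all fell, with medians of -2.10 and -2.39 on the log2 scale, and their sum was 53010 to 102000 CPM in naive and 7930 to 20260 CPM in injured pools. The 4 motor neuron genes all fell, with medians of -2.39 and -2.60, from 169 to 337 CPM in naive to 27.2 to 46.5 CPM in injured pools. A list of 5 general neuron genes did not move as one, since 3 fell and 0 rose in young mice and 3 fell and 1, Slc17a6, rose in middle-aged mice by 1.52 ± 0.45 (edgeR adjusted p = 0.00918), with their sum at 690.1 to 2002 CPM in naive and 285 to 491 CPM in injured pools. Of 3 genes of oligodendrocyte precursors, 2 rose at each age, with medians of 0.99 and 0.94. Of 5 astrocyte genes 4 fell at each age, with medians of -1.29 and -1.14. The 7 myeloid genes all rose, with medians of 3.48 and 2.71, from 103 to 224 CPM to 1509 to 2200 CPM, and the 4 fibroblast genes all rose. Summed over all 39 members, Hox RNA was 236 to 317 CPM in naive and 114 to 143 CPM in injured pools. The part of these cell types in the Hox changes was not tested. The level at which tissue was cut was not measured other than by these genes.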

How the data were processed

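Total RNA from laser-captured ventrolateral white matter was amplified and sequenced on a NextSeq500 by the authors. Per the labels and the study's methods, reads were checked with FastQC (0.11.4), aligned to GRCm38 with TopHat2 (2.0.10) and Bowtie (1.1.2) and counted per gene with featureCounts. The annotation release, strand setting and handling of shared reads are not given in the sources used here, and both amplification and shared reads can alter counts of similar genes. The deposited values are raw counts per gene, with 46078 gene identifiers, of which 45143 matched a symbol and 45229 a GENCODE M21 length.

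Columns were assigned to groups by the labels. Counts were fitted with edgeR 4.0.16 in R 4.3.3 (trimmed mean of M-values scaling, filterByExpr, quasi-likelihood test, 1 coefficient per group over 12 pools), and p-values were adjusted by Benjamini-Hochberg over 15866 genes. CPM used the adjusted library size, and length scaling used the union of exons. Shares and mean paralog numbers were given no test. Paralog ratios (0.5 added to each count) and 4 members below the filter, the latter chosen after seeing the data, were compared by 2-sided exact permutation within age or injury state, for which the smallest possible p is 0.005. Pools are counted as replicates because the labels number them separately; whether they were processed apart is not stated. Replicate numbers did not pair the samples (same-numbered deviations correlated at -0.113 to 0.153). Scripts were tested on simulated data.

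The members and gene lists were chosen with earlier results of these data known. Values in every pool are given for the 3 highest members per cluster by length-scaled level, for the last member with 3 counts in every pool and the next, and for the 5 highest and 5 lowest changes among members that passed for injury. Alternatives were other scalings, filters, DESeq2 1.42.0, a replicate block and leaving out each pool. Some members, listed genes and sequences are not reported here.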

Additional observations from a re-analysis of the deposited data

How the results depend on the processing

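The number of Hox genes that fell or rose with injury in young mice was 10, and 8 to 10 under the other scalings, filters, DESeq2 and the smaller fits. With each pool left out it was 6 to 11, with 6 both without young naive replicate 2 and without young injured replicate 2. In middle-aged mice it was 11, and 10 to 12 under the other settings and 11 to 13 with each pool left out. The replicate block gave 9 in young and 10 in middle-aged mice (Hoxa5 was at an edgeR adjusted p of 0.0550 there) and 0 for both age comparisons and for the difference of the injury effects. For age in naive tissue the count was 0 to 1 with each pool left out: without middle-aged naive replicate 1, Hoxb8 passed at -1.88 on the log2 scale (edgeR adjusted p = 0.0440). Age in injured tissue and the difference of the injury effects gave 0 with each pool left out and in the other settings run, DESeq2 included.

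Of 21 calls of a member in an injury comparison, 14 passed in every setting in which they were tested and 7 were lost in at least 1, those of Hoxb5, Hoxb6, Hoxc5, Hoxc6 and Hoxd3 in young and of Hoxa5 and Hoxc6 in middle-aged mice. Members that rose appeared in some settings: Hoxb4 and, where the filter let it through, Hoxc10 in middle-aged mice (edgeR adjusted p = 0.0222 without a filter, DESeq2 adjusted p = 0.0341), and Hoxb4 in young mice without young naive replicate 1 (edgeR adjusted p = 0.0467). Hoxd3 in middle-aged mice, which passed in no setting, was 0.007 with library totals only and ran from -0.504 (without middle-aged injured replicate 1) to 0.191 (without middle-aged naive replicate 1) with each pool left out, at 0.161 without middle-aged injured replicate 3.

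The mean paralog number with each pool left out was 6.43 to 6.53 in young naive, 6.24 to 6.44 in middle-aged naive, 5.83 to 5.91 in young injured, and 5.78 to 5.82 in the middle-aged injured tissue, and unscaled counts gave 5.76 in the last. The share from paralogs 10 to 13 with each pool left out was 0.192% to 0.382%, 0.0326% to 0.0471%, 0.624% to 0.919% and 0.608% to 0.742%, in the same order. It was 0.486% in middle-aged injured tissue with unscaled counts, and 0 in every group when members needed 10 counts in every pool, since none numbered 10 or above has them. A floor of 10 counts left 15 members in young injured tissue, 14 in that of middle-aged mice. With each pool left out, 23 to 25, 21 to 24, 25 to 26 and 24 to 25 members reached 3 counts in the 4 groups. Of the paralog ratio tests 0 passed, and 0 to 1 with each pool left out or 2 added to each count, both chosen after seeing the data: without middle-aged naive replicate 3, Hoxb9 to Hoxb8 passed at an exact adjusted p of 0.0400. Members below about 10 counts a pool, Hoxc9 and Hoxc10 among them, are limited by depth.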
